A study of Mus musculus with 9 samples.

Results

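The chemokine ligands are small secreted proteins that steer migrating cells. Of the 19505 genes with a symbol on the array, 39 were ligands: every gene named Ccl or Cxcl with a number, together with Cx3cl1, Xcl1, Pf4 and Ppbp, and without Cxcl15. Of these, 23 were CC ligands, 14 CXC ligands, 1 a CX3C ligand and 1 an XC ligand. Their RNA was measured on 9 arrays of 3LL cells, the Lewis lung carcinoma (LLC) line, a transplantable mouse lung tumour that carried GFP here. In the dish group 3 samples were grown as a monolayer for 7 days. The subcutaneous group (3 samples) and the lung group (3 samples) are GFP-positive cells recovered 7 days after transplantation under the skin or into the lung. All groups share the tumour line and the GFP label, and the strain given is C57/BL6. The series text names the lung host with an abbreviation, BLM, that it does not spell out. The labels do not state whether replicates stem from different animals or cultures, so each p-value reflects only how much these samples vary, and that variation may be technical. The line is 1 source, and the GFP gate does not by itself show that all recovered RNA is tumour RNA. In such bulk samples, fewer cells of a type and less RNA per cell cannot be told apart. The transplanted cells also differ from the dish in being recovered from tissue, so transplantation and recovery cannot be told apart in comparisons with the dish.

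Chemokines act through membrane-spanning receptors on leukocytes and other cells, and they are held on cell surfaces by heparan sulphate. Ccl2 draws monocytes through Ccr2. Cxcl1, Cxcl2 and Cxcl3 belong to the CXC ligands that draw neutrophils through Cxcr2, and Cxcl9, Cxcl10 and Cxcl11 are interferon-induced ligands of Cxcr3. Many ligand genes are textbook targets of NF-kB, the transcription factor family that cytokines and tissue injury activate, and tumour cells of many kinds secrete ligands of the Ccl2 and Cxcl1 type.

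Cxcl1 and Cxcl2 are direct neighbours among protein-coding genes on chromosome 5, and Cxcl3 is parted from Cxcl1 by 1 coding gene, Cxcl15. The 250 bases before their starts are shown because these stretches share a motif while the genes differ on the arrays. They come from RefSeq (mouse build GRCm38.p6, plus strand, 5′ to 3′), and capitals mark every match to an NF-kB-like motif (GGG, any 3 bases, then TTCC) searched on both strands, with overlapping matches merged.
Cxcl1, chr5:90890995-90891244: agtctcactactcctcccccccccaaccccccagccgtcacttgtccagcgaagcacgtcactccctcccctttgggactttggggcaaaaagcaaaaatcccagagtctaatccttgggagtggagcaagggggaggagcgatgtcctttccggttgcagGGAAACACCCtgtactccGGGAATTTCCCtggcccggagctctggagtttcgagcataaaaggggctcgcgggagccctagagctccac
Cxcl2, chr5:90903649-90903898: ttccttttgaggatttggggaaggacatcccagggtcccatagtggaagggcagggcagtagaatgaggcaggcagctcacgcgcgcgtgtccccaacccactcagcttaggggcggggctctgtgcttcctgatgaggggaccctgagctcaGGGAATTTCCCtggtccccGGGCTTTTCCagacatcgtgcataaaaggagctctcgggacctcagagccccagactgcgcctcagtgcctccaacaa
Cxcl3, chr5:90785851-90786100: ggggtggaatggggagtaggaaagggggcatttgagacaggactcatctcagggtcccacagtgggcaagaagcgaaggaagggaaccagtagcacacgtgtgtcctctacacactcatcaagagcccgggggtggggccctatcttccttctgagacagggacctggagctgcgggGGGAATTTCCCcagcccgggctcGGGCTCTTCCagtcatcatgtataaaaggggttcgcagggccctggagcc
Each of the 3 stretches holds GGGAATTTCC, whose first base lies at -71 for Cxcl1, -97 for Cxcl2 and -73 for Cxcl3, counted back from the gene's start. Its letters match again on the opposite strand 1 base further on. Among the ligands, 27 genes had such a stretch (30 stretches), and 7 of these (23.3%) held the motif, against 4.65% of all 32851 stretches. They belong to Ccl1, Ccl9, Ccl20, Cxcl1, Cxcl2, Cxcl3 and Cxcl10. An interferon-response-like motif (GAAA, any 2 bases, then GAAA) was in the stretches of Ccl19, Cxcl10 and Cxcl14 (2.98% of all stretches), and an AP-1-like motif, TGANTCA, in those of Ccl9, Ccl27a, Cxcl10 and Ppbp (6.75% of all). A match is a description of letters, not of a bound site. Ccl2, Ccl4, Ccl5, Ccl7, Ccl11, Ccl21c, Ccl24, Ccl26, Cxcl5, Cxcl11, Cxcl16 and Cxcl17 had no stretch here.

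Few ligands were expressed above background. The table holds no detection call, so a gene was read as above background in a group when its log2 signal exceeded the 90th percentile of the 5222 negative controls on all 3 arrays; that level was 7.27 to 7.59 on the dish arrays, 7.37 to 7.73 on the subcutaneous arrays and 7.20 to 7.36 on the lung arrays. By this measure 1 ligand was above background in the dish, Ccl2, and 2 were in each transplanted group, Ccl2 and Cxcl2. That is 2.56% of the 39 ligands in the dish and 5.13% in each of the others, where 28.0%, 27.0% and 30.8% of all genes were above it in the dish, subcutaneous and lung groups. Ccl20 passed on 2 dish arrays, and Cxcl1, Ccl6, Ccl21a and Ccl25 passed on 1 array each. The other 32 ligands, Ccl22 and Ccl27a among them, were under it on all 9 arrays, so their differences are differences between background signals and may understate a change.

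**Figure D1:**
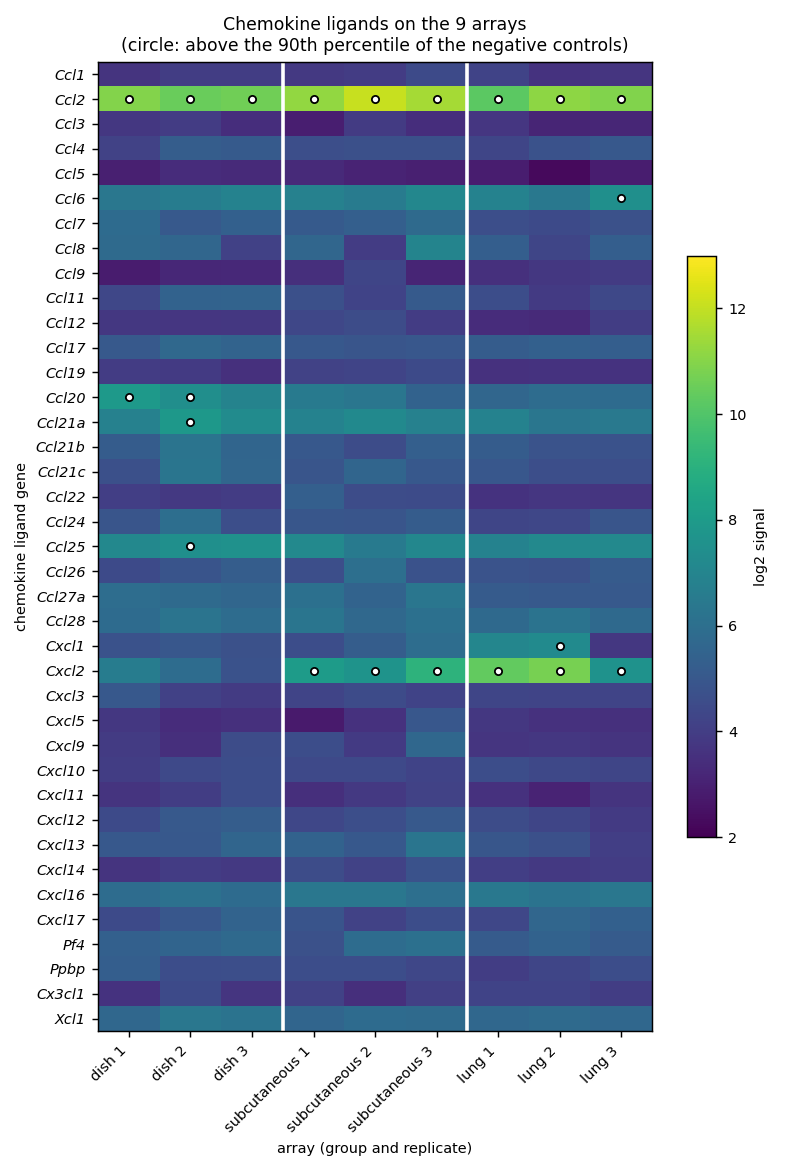
Log2 signal (colour) of the 39 chemokine ligands (rows, CC ligands first) on the 9 arrays (columns, parted by group), with a circle where the value exceeds the 90th percentile of that array's negative controls. Ccl2 carries a circle on all 9 arrays, Cxcl2 on the 6 arrays of transplanted cells, and the other circles are single arrays of Cxcl1, Ccl6, Ccl21a and Ccl25 and 2 dish arrays of Ccl20.

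Ccl2 was the ligand that lay above background in all 3 groups. Its log2 signal was 10.95, 10.47 and 10.60 on dish replicates 1, 2 and 3, then 11.21, 12.09 and 11.53 on the subcutaneous arrays and 10.22, 11.15 and 10.91 on the lung arrays. All 3 subcutaneous values lay above every dish and lung value, and the dish and lung values overlapped. The means were 10.67 ± 0.25 (SD, n = 3) in the dish, 11.61 ± 0.45 under the skin and 10.76 ± 0.48 in the lung. The subcutaneous mean stood 0.94 above the dish mean (SE 0.31, 95% interval 0.28 to 1.60, limma adjusted p = 0.0622), and the lung mean differed from the subcutaneous mean by -0.85 (interval -1.51 to -0.19, adjusted p = 0.0816), neither of them past the threshold of 0.05. Over the alternatives these adjusted p ran from 0.0211 to 0.211 and from 0.0181 to 0.310, and they were under the threshold in 4 and 5 of 18, the first of them for instance without subcutaneous replicate 1 (1.14, adjusted p = 0.0450). Between lung and dish the difference was 0.09 (interval -0.57 to 0.75, adjusted p = 0.904), with a sign that depended on the scaling. Values of Ccl7, which lies next to Ccl2 on chromosome 11 and also draws monocytes, were 4.48 to 5.85 and under background on all arrays.

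Cxcl2, a neutrophil attractant, was higher in transplanted than in cultured cells. Its log2 signal was 6.62, 5.88 and 4.78 on the dish arrays, all under background. On the subcutaneous arrays it was 8.03, 7.63 and 9.11, and on the lung arrays 10.37, 10.75 and 7.61. Neither transplanted group overlapped with the dish, while lung replicate 3 lay below all 3 subcutaneous values. The means were 5.76 ± 0.93 (SD, n = 3), 8.25 ± 0.76 and 9.57 ± 1.71. Cxcl2 rose between dish and lung by 3.82 (SE 0.70, interval 2.31 to 5.32, adjusted p = 0.00649), and this call was kept in 18 of 18 alternatives. With the dish at its background level, the rise is at least 2.15, or 1.57 without lung replicate 2 and 3.13 without lung replicate 3. Between dish and subcutaneous cells it rose by 2.50 (SE 0.70, adjusted p = 0.0320), at least 0.83, or 0.40 without subcutaneous replicate 3. That call was lost without dish replicate 2 (adjusted p = 0.0834), dish replicate 3 (0.139), subcutaneous replicate 1 (0.0642) or subcutaneous replicate 3 (0.118), and with values under background set to the background level (0.630). At the 95th percentile of the controls the dish levels were 8.35, 8.54 and 8.83, all above the subcutaneous mean of 8.25, so no bound remains there. Cxcl2 then passed on subcutaneous replicate 3 and on lung replicates 1 and 2 alone. Lung and subcutaneous cells differed by 1.32 (interval -0.19 to 2.83, adjusted p = 0.232), and by 2.30 without lung replicate 3 (adjusted p = 0.0100, where the alternatives span 0.0100 to 0.591).

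Cxcl1, named here after its values were seen, shared with Cxcl2 a split among the lung arrays. Its log2 signal was 7.05 and 7.26 on lung replicates 1 and 2 and 3.77 on lung replicate 3. The background levels on these arrays were 7.20, 7.23 and 7.36, so Cxcl1 passed on lung replicate 2 alone. The dish mean was 4.83 ± 0.15 (SD, n = 3, lowest value 4.72), and the subcutaneous values were 4.60, 5.25 and 5.92. With all arrays Cxcl1 differed by 1.20 between lung and dish (SE 0.69, adjusted p = 0.339) and by 0.77 between lung and subcutaneous cells (interval -0.72 to 2.27, adjusted p = 0.505). Without lung replicate 3 the differences were 2.33 (adjusted p = 0.00205) and 1.90 (adjusted p = 0.00354), where the alternatives span 0.00205 to 0.732 and 0.00354 to 0.925. Lung replicates 1 and 2 both stood above lung replicate 3 by at least 3.28 for Cxcl1 and 2.75 for Cxcl2. For Cxcl1 nearly all of this gap lies under background, as the level on lung replicate 3 exceeded both brighter values. A gap of 2 or more was seen for these 2 of the 39 ligands and for 69 of all 19505 genes (0.354%). The direction of the gap was taken from these same values, so the counts describe the split and do not test it. Cxcl3, whose stretch holds the same GGGAATTTCC, was under background everywhere, at 4.31, 4.25 and 4.27 on the lung arrays and 3.90 to 5.03 in the dish. The RNA integrity numbers of lung replicates 1, 2 and 3 were 8.3, 7.9 and 8.3, and on lung replicate 3, where Cxcl1 and Cxcl2 were lowest, the airway gene Scgb1a1 was highest (6.31, 9.83 and 13.68 on lung replicates 1, 2 and 3). The part of these measures in the split was not tested. RNA integrity numbers were 8.5, 8.6 and 8.4 on dish replicates 1, 2 and 3 and 8.6, 7.5 and 7.8 on the subcutaneous arrays. Every lung number lay below every dish number, and the part of RNA quality in the differences between groups was not tested.

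**Figure D2:**
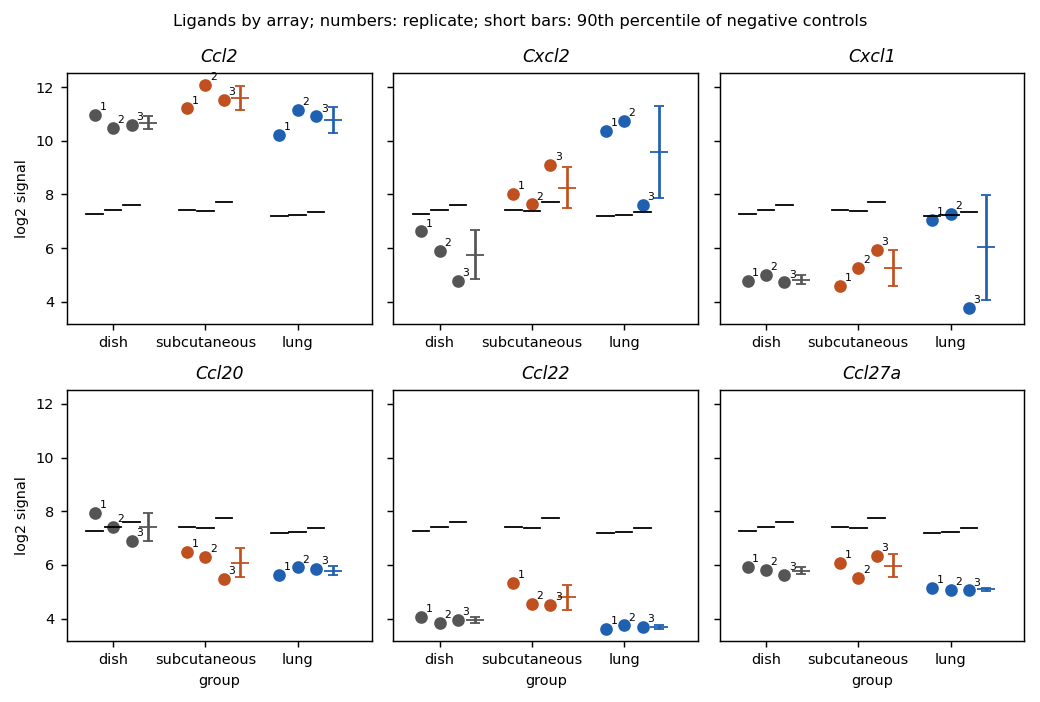
Log2 signal of 6 ligands on each array (points, numbered by replicate, coloured by group), with the group mean ± SD (n = 3) to the right and the background level of each array as a short bar. Ccl2 lies far above background in all groups, Cxcl2 crosses it in the transplanted groups, Cxcl1 passes it on lung replicate 2, and Ccl22 and Ccl27a stay under it.

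Ccl20, the ligand of Ccr6 that draws memory T cells and immature dendritic cells, was higher in the dish. Its values were 7.93, 7.42 and 6.90 on the dish arrays, 6.48, 6.30 and 5.47 on the subcutaneous arrays and 5.62, 5.91 and 5.85 on the lung arrays. The dish values did not overlap with those of either transplanted group, and dish replicates 1 and 2 alone exceeded background. Ccl20 fell between dish and lung (-1.63, SE 0.32, interval -2.32 to -0.94, adjusted p = 0.00951) and between dish and subcutaneous cells (-1.33, SE 0.32, interval -2.02 to -0.64, adjusted p = 0.0142). Both calls were lost when values under background were set to that level (adjusted p = 0.225 and 0.630). The second was also lost without dish replicate 1 (0.0638) or subcutaneous replicate 3 (0.0550).

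Ccl22 and Ccl27a passed the test from signals under background on all 9 arrays. Ccl22, a ligand of Ccr4 that draws regulatory T cells, was at 4.05, 3.82 and 3.94 in the dish, 5.32, 4.55 and 4.51 under the skin and 3.60, 3.74 and 3.70 in the lung, so the subcutaneous values were the highest and did not overlap with the others. It fell between subcutaneous and lung cells (-1.11, interval -1.66 to -0.55, adjusted p = 0.0120; 0.0537 without lung replicate 1) and rose between dish and subcutaneous cells (0.85, interval 0.30 to 1.41, adjusted p = 0.0449). The latter call was lost in 12 of 17 alternatives. These include the sets without dish replicate 1 (0.0764), 2 (0.137) or 3 (0.104), without subcutaneous replicate 1 (0.145) or 2 (0.0515), and without lung replicate 1 (0.0670) or 2 (0.0608). Ccl27a, a skin ligand of Ccr10, was at 5.91, 5.81 and 5.64 in the dish, 6.07, 5.51 and 6.33 under the skin and 5.14, 5.06 and 5.05 in the lung. The lung values were the lowest and did not overlap with the others. It fell between subcutaneous and lung cells (-0.89, interval -1.43 to -0.34, adjusted p = 0.0319), a call lost without subcutaneous replicate 1 (0.0768) or 3 (0.109), or without lung replicate 1 (0.0871), 2 (0.0864) or 3 (0.0626). With values under background set to that level, neither Ccl22 nor Ccl27a was called in any comparison.

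The remaining ligands gave no call by limma in any comparison. Over the 34 of them the log2 signal ran from 2.27 (Ccl5) to 7.85 (Ccl21a), with a median of 4.65. Ccl21a, a homing ligand of Ccr7, was at 6.81, 7.85 and 7.29 in the dish and 6.31 to 7.24 on the other arrays. Ccl21b and Ccl21c are near-identical copies, and 1 of the 2 Ccl21b features held the same 9 values as the Ccl21c feature (largest difference 0), so copies of this gene cannot be told apart here. Ccl25, a thymus and gut ligand of Ccr9, was at 7.13, 7.47 and 7.57 in the dish and 6.50 to 7.19 elsewhere. Ccl6 was at 6.35 to 6.89 in the dish, 6.58 to 7.10 under the skin and 6.87, 6.41 and 7.46 in the lung. The interferon-induced ligands stayed low: Cxcl9 was at 3.49 to 5.68, Cxcl10 at 4.01 to 4.58 and Cxcl11 at 3.10 to 4.60. The platelet ligands Pf4 (4.72 to 6.06) and Ppbp (4.01 to 5.28) and the stromal ligand Cxcl12 (3.87 to 5.25) were under background on all arrays as well.

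The share of ligands called was set beside that of all genes. Between lung and subcutaneous cells 2 of 39 ligands were called (5.13%), 0 higher and 2 lower in the lung, where 15.0% of all 19505 genes were called (9.21% higher and 5.79% lower, or 1797 higher of 2927; 1124 of 4060 with equal upper quartiles). Between lung and dish 2 were called (5.13%), 1 in each direction, against 6.78% of all genes (4.81% higher and 1.97% lower, or 938 higher of 1322; 697 of 1211 after quantile normalization and 565 of 2352 with equal upper quartiles). Between subcutaneous and dish cells 3 were called (7.69%), 2 higher and 1 lower, against 12.9% of all genes (6.41% higher and 6.47% lower). With equal upper quartiles the order turned in the lung comparisons. Between lung and subcutaneous cells 23.1% of ligands were called against 20.8% of all genes, and between lung and dish 15.4% against 12.1%. Between lung and dish the order also turned on leaving out any 1 dish or lung array. Examples are dish replicate 2 (5.13% against 2.64%) and lung replicate 3 (7.69% against 7.39%). It held there without single subcutaneous arrays, and in the other comparisons without any 1 array. With the filter on dim genes, which left 2 ligands to test, it turned in each comparison. So the family's share stood below that of all genes or above it depending on scaling, filter and, between lung and dish, the arrays used. At an unadjusted p under 0.05 the counts were 9, 11 and 7 ligands, where 29.1%, 21.9% and 25.7% of all genes passed. Among genes above background in either group the called shares were 32.8%, 15.6% and 31.7%, and 35, 32 and 34 of the 39 ligands were under background on all arrays of both groups. The ligands' median difference was -0.24 between lung and subcutaneous cells (all genes -0.07), -0.23 between lung and dish (all genes -0.07) and 0.00 between subcutaneous and dish cells (all genes -0.01). The 3 values of each group did not overlap for 11, 10 and 8 ligands (28.2%, 25.6% and 20.5%), against 32.5%, 28.4% and 29.3% of all genes. The comparisons share groups, so their counts are not independent of each other.

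**Figure D3:**
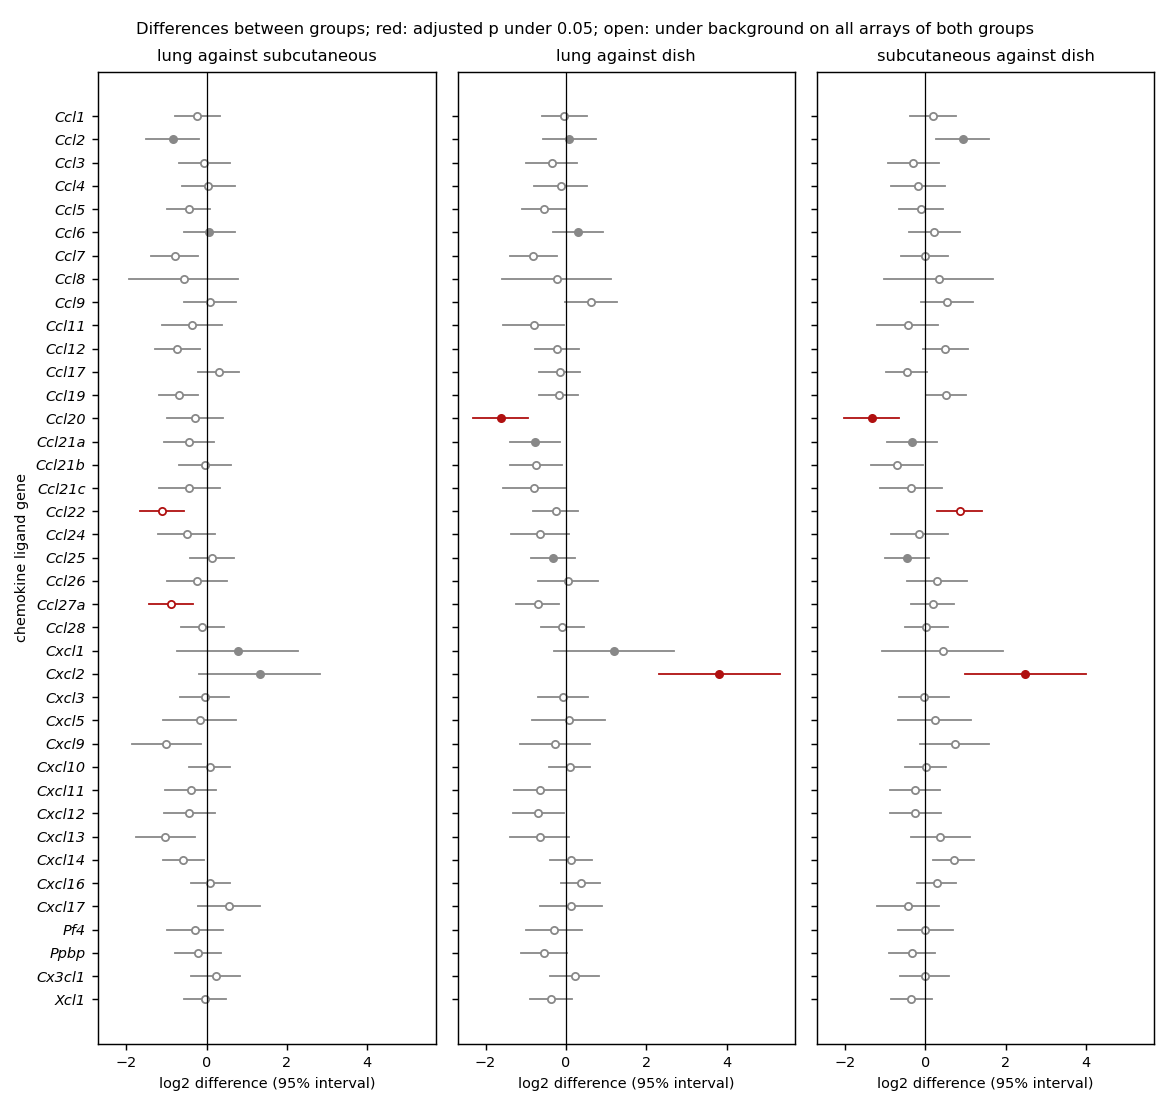
Log2 difference of each of the 39 ligands (points) with limma's 95% interval (lines) in the 3 comparisons, red where the adjusted p is under 0.05 and open where the gene was under background on all arrays of both groups. Most points lie within 1 of 0 (35, 36 and 37 of 39 from left to right), and Cxcl2 stands to the right of them in the comparisons with the dish.

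The receptors for these ligands were mostly under background too. Of 17 chemokine receptors measured, 16 were under it on all 9 arrays, among them Ccr2 (3.12 to 3.82), the Ccl2 receptor, Cxcr2 (4.09 to 4.87), the Cxcl2 receptor, and Ccr6 (2.76 to 3.43), the Ccl20 receptor. Ccr7 was the exception, at 7.72, 8.34 and 8.10 in the dish, 8.79, 8.57 and 9.20 under the skin and 7.19, 7.07 and 7.73 in the lung. It fell between subcutaneous and lung cells (-1.52, adjusted p = 0.00300), as did Cx3cr1 (-1.10, adjusted p = 0.0149; 0.0835 without lung replicate 1), which was under background everywhere. No receptor of the list was called in the other comparisons by limma (median differences -0.14 for lung and -0.01 for subcutaneous cells, against dish). Of 5 atypical receptors, which bind or clear ligands without classical signalling, 0 were called and 5 were under background on all arrays.

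Genes of the NF-kB pathway were measured as common regulators of ligand genes. Of 19 such regulators and inducing cytokines, 4 rose and 0 fell between dish and lung, 2 rose and 0 fell between dish and subcutaneous cells, and 1 rose and 0 fell between subcutaneous and lung cells, with medians of 0.27, 0.29 and 0.12. Nfkbia, the inhibitor that NF-kB itself induces, was at 10.44, 9.62 and 9.02 in the dish, 12.82, 12.61 and 12.92 under the skin and 13.35, 13.50 and 12.14 in the lung. Both transplanted groups lay above the dish without overlap, and Nfkbia rose by 3.30 in the lung (adjusted p = 0.000518) and by 3.09 under the skin (adjusted p = 0.000238), in 18 of 18 alternatives. The related inhibitor Nfkbib rose by 1.78 and 1.33 (adjusted p = 0.00341 and 0.00787), and the subunit Rel rose by 1.64 in the lung against the dish (adjusted p = 0.00767). Rel was under background on all dish and subcutaneous arrays, so this rise is at least 0.98, or 0.60 without lung replicate 2. On the lung arrays Rel exceeded the 95th percentile of the controls on replicate 2 alone (9.16). Rel also rose between subcutaneous and lung cells (1.20, at least 0.89, or 0.51 without lung replicate 2; adjusted p = 0.0195, 0.0643 without subcutaneous replicate 2 and 0.0734 without lung replicate 2). That call was lost as well after quantile normalization (limma adjusted p = 0.0513) and with equal upper quartiles (0.0630). Nfkb2 rose between dish and lung (1.64, adjusted p = 0.0495), a call lost in 10 of 18 alternatives, among them those without dish replicate 1 (0.0632), 2 (0.126) or 3 (0.182), subcutaneous replicate 1 (0.0583) or 2 (0.0647), and lung replicate 1 (0.182) or 2 (0.181). Of the 19 genes, 11 were under background on all 9 arrays. With these included, 10 of the 19 (52.6%) stood higher on both lung replicates 1 and 2 than on lung replicate 3, against 38.4% of all genes and 10 of the 39 ligands (25.6%). The 10 regulators hold Relb (by 0.0035), Tnf, Csf2 and Zfp36, all under background on all 9 arrays, so their order is that of background signals. Among the 10, chosen after their values were seen, were Nfkb2 (by at least 1.76), Tnfaip3 (1.64), Nfkbia (1.22) and Nfkbiz (0.76). Others did not stand higher, such as Nfkbib (-0.28) and Il1b (-1.28, under background on all 9 arrays). The share was not tested. The subunit gene Rela, at 10.74 to 11.56 on all arrays, differed by 0.22 between lung and dish (adjusted p = 0.672).

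**Figure D4:**
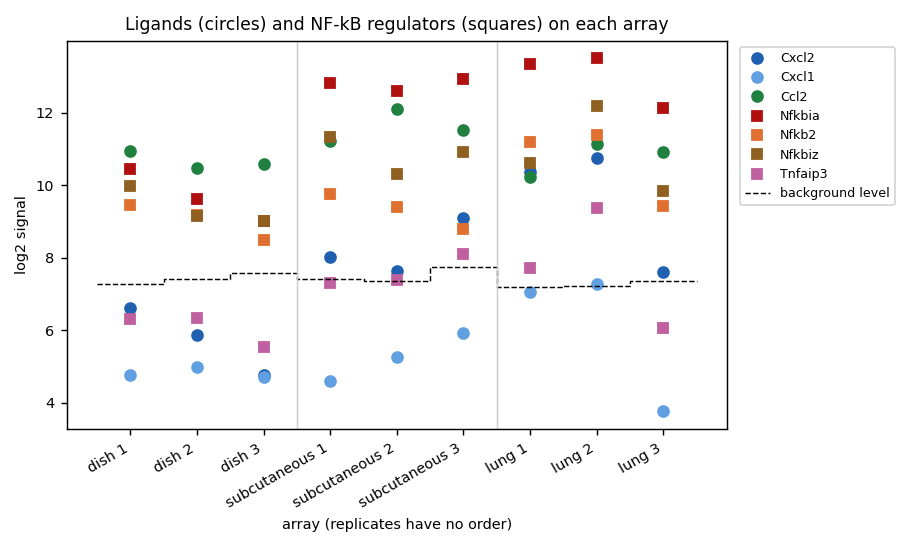
Log2 signal of Cxcl2, Cxcl1 and Ccl2 (circles) and of the NF-kB regulators Nfkbia, Nfkb2, Nfkbiz and Tnfaip3 (squares) on each array, with the background level dashed. Cxcl2 and Nfkbia are lowest in the dish, and Cxcl2, Cxcl1 and the 4 regulators are lower on lung replicate 3 than on lung replicates 1 and 2. Cxcl1 and the 4 regulators were chosen after their values were seen. Other genes of the list that are not plotted, such as Nfkbib and Il1b (the latter under background on all arrays), were highest on lung replicate 3 among the lung arrays.

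Of 11 interferon regulators, 2 rose between dish and lung, 3 rose between dish and subcutaneous cells and 0 fell. Ifnar1, a chain of the type I receptor, rose by 1.71 in the lung and 1.86 under the skin (adjusted p = 0.00624 and 0.00143). It was under background on all dish arrays, so these rises are at least 0.39 in the lung (0.28 without lung replicate 1) and 0.54 under the skin, and both calls were lost with values set to the background level (adjusted p = 0.262 and 0.0553). Ifngr2 rose by 1.16 in the lung (adjusted p = 0.0164), and lost the call without dish replicate 2 (0.0640) or 3 (0.0706) or lung replicate 2 (0.0590). Ifnar2 rose by 1.08 under the skin (adjusted p = 0.0166), with the call lost without dish replicate 2 (0.0830) or subcutaneous replicate 2 (0.0697). Stat2, under background on all dish arrays and on subcutaneous replicate 3, rose by 1.42 there (adjusted p = 0.0370), at least 0.26 with all arrays and 0.060 without subcutaneous replicate 1, with no bound above 0 without subcutaneous replicate 2. It lost the call in 6 of 17 alternatives, those without dish replicate 1 (0.101) or 2 (0.147), subcutaneous replicate 1 (0.121) or 2 (0.141) and lung replicate 1 (0.0503) among them. None of these 11 genes was called between lung and subcutaneous cells by limma (median -0.15).

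Among 9 genes that present or trim chemokines, 3 rose and 2 fell between dish and subcutaneous cells, 0 rose and 2 fell between dish and lung, and 0 rose and 2 fell between subcutaneous and lung cells. Syndecan Sdc4, a heparan sulphate carrier on the cell surface, was at 12.15, 11.65 and 11.21 in the dish, 13.27, 14.00 and 13.71 under the skin and 11.21, 11.58 and 11.76 in the lung. Its subcutaneous values stood above all others, and it rose between dish and subcutaneous cells (1.98, adjusted p = 0.000692) and fell between subcutaneous and lung cells (-2.14, adjusted p = 0.000634). Sdc1, another syndecan, was at 14.46 to 14.66 in the dish, 13.33 to 13.85 under the skin and 13.12 to 13.51 in the lung. It fell between dish and lung (-1.31, adjusted p = 0.00614) and between dish and subcutaneous cells (adjusted p = 0.0130, lost without dish replicate 2, 0.0540, or subcutaneous replicate 2, 0.0522). The protease Adam17, which sheds membrane-bound ligands, rose between dish and subcutaneous cells (1.28, adjusted p = 0.00664). The counts also hold Sdc3, which fell against dish (-2.06 in the lung, -1.48 under the skin) and was under background on all arrays. Both Sdc3 calls were lost with values set to the background level (limma adjusted p = 0.346 and 0.630). Sdc2 rose between dish and subcutaneous cells (1.38) and fell between subcutaneous and lung cells (-1.22), calls lost in 5 and 4 of 17 alternatives.

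Markers of other cell types moved with the groups in part. The summed log2 level of 11 fibroblast markers was 9.09 to 9.51 in the dish, 16.48 to 17.25 under the skin and 10.90 to 13.98 in the lung. Of these 11 markers, 7 were under background on all arrays, Col1a1, Col1a2, Col3a1, Fap and Thy1 among them. By calls, 3 of the 11 rose and 1, Pdgfrb, fell between dish and subcutaneous cells, and 1 rose between dish and lung. Between subcutaneous and lung cells 5 fell, of which Thy1 and Mfap5 were under background on all arrays. Dcn and Lum carried most of the sum: Dcn was at 16.47, 17.09 and 16.37 under the skin and 13.94, 12.15 and 10.53 in the lung. The level of 10 alveolar type II markers was 13.45 to 13.72, 13.09 to 13.30 and 14.84 to 16.57 in dish, subcutaneous and lung cells. In dish and subcutaneous cells it was mostly that of Etv5 (13.34 to 13.63 and 12.89 to 13.14). Sftpc was at 4.95 to 5.83 there and 13.45 to 16.37 in the lung. Of these 10 markers, 5 rose between subcutaneous and lung cells, 4 between dish and lung and 1 between dish and subcutaneous cells. Of the 10, 4 were under background on all arrays, the called Sftpd and Slc34a2 among them. Slc34a2 lost its calls in 12 and 11 of 17 alternatives. Sftpb, above background on 1 lung array, lost both calls with values set to the background level. The level of 7 airway secretory markers was 7.20 to 7.37, 7.35 to 7.78 and 7.75 to 14.55, with 1 gene called, Scgb1a1, in both lung comparisons. Its call against subcutaneous cells was lost in 4 of 17 alternatives, without subcutaneous replicate 2 (0.0535) among them. Its call against dish was lost in 6 of 17, among them those without dish replicate 1 (0.0583), 2 (0.0522) or 3 (0.0706) or lung replicate 2 (0.0510). The part of other cell types in the values of Ccl2 and Cxcl2 was not tested. Leukocyte markers were low. Of 13 monocyte and macrophage markers 10 were under background on all arrays, among them Ptprc, Csf1r and Adgre1, while Lyz2 rose in the lung against subcutaneous cells (2.33, adjusted p = 0.0450) and dish (2.93, adjusted p = 0.0274), calls lost in 12 and 7 of 17 alternatives, among them those without lung replicate 1 (0.178 and 0.125) or 3 (0.149 and 0.0811), and Cd14 was above background in the dish too. Lyz2 was at 9.68, 6.32 and 10.04 on lung replicates 1, 2 and 3, and the cell type behind this signal was not tested. The level of the 13 markers was 9.28 to 9.70, 9.27 to 9.78 and 9.55 to 11.08 in dish, subcutaneous and lung cells. All 10 neutrophil (7.13 to 7.93 over the 9 arrays), 6 platelet (7.83 to 8.56), 9 endothelial (7.29 to 8.14) and 9 keratinocyte markers (7.72 to 8.24) were under background on all arrays, as were 10 of 11 T and NK cell markers (7.95 to 8.88) and 7 of 8 dendritic cell markers. The dendritic list's level (12.10 to 13.92) was that of Fscn1, which the cultured cells expressed too. Single genes were called in the endothelial (1, under the skin against dish), T and NK cell (1 between lung and subcutaneous cells and 1 between lung and dish) and keratinocyte lists (1, lung against subcutaneous).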

How the data were processed

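The authors deposited 1 table of log2 signals from a 1-colour whole-transcript array (28846 rows, 9 columns). The normalization was not given in the sources used here, nor were software and build. Per the labels' protocols, total RNA was column-purified and sense cDNA labelled with biotin. The log2 values were used as deposited. Features were named through the platform annotation, and 40 features gave 39 ligands (the feature with the highest mean per gene, without Cxcl15). limma 3.58.1 in R 4.3.3 (lmFit, eBayes) fitted 3 group means on all 9 arrays, two-sided, with Benjamini-Hochberg adjustment over 19505 genes; a call is an adjusted p under 0.05. "Rose" and "fell" refer to calls. "At least" is the brighter group's mean less the dimmer group's mean background level. It is a difference of means that carries no sampling error, so it is not a lower confidence limit of the rise. Intervals are limma's 95% intervals. The number of arrays limits the precision.

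Named with every value were ligands above background on all 3 arrays of a group and ligands called in a comparison. Of each pathway list, counts and up to 4 called genes were given, and all called genes of the list that presents or trims chemokines. The ligands and gene lists were chosen with earlier results of these data known. A list's summed level is log2 of the sum of its linear signals. Some listed genes were not analysed here. Alternatives were other scalings, filters, variance models, fewer samples and a replicate block.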

Additional observations from a re-analysis of the deposited data

How the results depend on the processing

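Cxcl2 between lung and dish kept its call and direction in all 18 alternatives run, with values of 2.15 to 4.80. The number of ligands called between lung and subcutaneous cells was 2, and became 9 with equal upper quartiles (0 higher, 9 lower), 6 with array weights, and 1 each with the filter on dim genes, with values set to the background level and with only the 2 groups fitted. Between lung and dish it was 2, and became 6 with equal upper quartiles, 5 with array weights and 1 each with the filter and the background level. Between subcutaneous and dish cells it was 3, and 1 with the background level. Leaving out 1 array gave 0 to 4, 2 to 3 and 1 to 3 calls. The first count was 0 without lung replicate 1, 1 without subcutaneous replicate 1 or 3 or lung replicate 2, and 4 without subcutaneous replicate 2 or lung replicate 3; the last was 1 without any 1 dish array or subcutaneous replicate 3. The filter left 2 ligands to test. Equal upper quartiles moved the median of all genes from -0.07 to -0.38 (lung against subcutaneous) and from -0.07 to -0.41 (lung against dish). Over all genes the lung against dish count of 1322 became 2352 with equal upper quartiles, 3039 with array weights and 514 to 1442 without single arrays (514 and 667 without dish replicates 2 and 3, 591 and 765 without lung replicates 1 and 2); the lung against subcutaneous count of 2927 became 1476 to 2928 (1476 and 1938 without lung replicates 1 and 2), and the subcutaneous against dish count of 2513 became 1639 (without dish replicate 2) to 2738.

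The difference of Ccl2 between lung and dish turned negative after quantile normalization (-0.14), with equal upper quartiles (-0.25), with array weights (-0.068), and without dish replicate 2 or lung replicate 2 (range without single arrays -0.11 to 0.36). Cxcl1 turned to -0.23 (lung against subcutaneous) and -0.15 (lung against dish) with the background level, which replaces nearly all its values. The cause of the other changes was not tested. With 2 of 3 arrays required, 2 ligands were above background in the dish, and 1 to 2 without single dish arrays. With the 90th percentile, leaving out single arrays gave 2 to 2 ligands in the subcutaneous and the lung group. With the 95th percentile and all arrays it was 1 in each, Ccl2, and Cxcl2 was lost.

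The titles share replicate numbers, but same-numbered arrays did not deviate together (r -0.06 to 0.09 across genes). No sign of pairing was seen, but with 3 arrays a group such correlations cannot exclude a shared batch or animal. With the replicate block 2, 2 and 2 ligands were called in the 3 comparisons, and Ccl22 between subcutaneous and dish cells was not (adjusted p = 0.0551). Signal near background is a limit: 35, 32 and 34 of the 39 ligands were under it on all arrays of both groups compared.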
